A study of Mus musculus with 2 samples.

Results

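The enzymes of heme synthesis were followed in fetal liver progenitors with and without Brd9, a chromatin reader that belongs to the non-canonical BAF remodeller. The set holds 7 genes chosen by symbol, Alas2, Alad, Uros, Urod, Cpox, Ppox and Fech, of 32285 genes listed in both libraries, and all 7 were found. The enzyme that acts between Alad and Uros was not analysed here. One single-cell library came from Vav1-iCre Brd9fl/fl embryos (Brd9 knockout) and 1 from Brd9fl/fl embryos (control), both C57BL/6 and CD45.2(+), at E14.5. The cells were lineage-negative and c-Kit-positive, so that the most mature, Kit-negative erythroblasts were selected against. Both libraries carry floxed alleles and the knockout alone carries Vav1-iCre, which acts in blood cells, so that an effect of Cre itself and one of Brd9 loss cannot be told apart. How many embryos were pooled per library is not stated in the labels.

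With 1 library per genotype no difference below has a replicate check or a p-value. Intervals are at 95%, exact except for differences between stage ratios, which have normal approximations, and they take in counting error alone. After filtering, 6757 knockout and 6860 control cells were analysed, with a median of 36007 unique molecular identifiers (UMIs, counts of single captured transcripts) per knockout cell and 38486 per control cell. Both sexes were present in each library, at 58.9% female cells in the knockout and 23.0% in the control, and 16 cell barcodes occurred in both libraries. Brd9 itself had 6.40 counts per 1000000 UMIs (CPM) in knockout and 26.8 CPM in control erythroid-like cells, lower in the knockout as its label says, although which part of the gene these 3′ tags cover relative to the deleted exons was not tested.

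Heme is built from glycine and succinyl-CoA along a path that begins in the mitochondrion, passes through the cytosol and returns to the mitochondrion, where iron is inserted. Erythroid cells make most of the body's heme, for hemoglobin, and use their own form of the first enzyme, encoded by the X-linked gene Alas2, while other cells use Alas1. GATA1 and KLF1 are the erythroid transcription factors best known for driving these genes. In order of action, Alas2 makes aminolevulinic acid, Alad joins a pair of these molecules into porphobilinogen, and Uros closes the tetrapyrrole ring as uroporphyrinogen. Urod then removes carboxyl groups to give coproporphyrinogen, Cpox and Ppox oxidise it to protoporphyrin, and Fech, the ferrochelatase, inserts the iron. In GENCODE M21 on mm10, the build of the files, Alas2 lies at chrX:150547375-150570638 and Cpox at chr16:58670292-58717636 on the plus strand. On the minus strand lie Alad at chr4:62509169-62519918, Urod at chr4:116989965-116994413, Uros at chr7:133686243-133710072 and Ppox at chr1:171275990-171281186.

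Upstream sequence was read for the 3 members that the results below turn on most: Alas2, with the steepest stage pattern, Cpox, the most abundant member, and Urod, the member lowest in the knockout relative to control. Sequences are from RefSeq (GRCm38.p6), given 5′ to 3′ on the strand of the gene, and each ends at or before the base preceding the annotated transcript start. Capitals mark GATA motifs, searched on either strand as GATAA or GATAG with an A or a T before it. The window of Alas2, on the plus strand at chrX:150547167-150547374, stops at the first exon that GENCODE annotates there, and that of Cpox, chr16:58669958-58670207 on the plus strand, and of Urod, chr4:116994414-116994663 on the minus strand, overlap no exon of their build's GENCODE M21 annotation.
Alas2: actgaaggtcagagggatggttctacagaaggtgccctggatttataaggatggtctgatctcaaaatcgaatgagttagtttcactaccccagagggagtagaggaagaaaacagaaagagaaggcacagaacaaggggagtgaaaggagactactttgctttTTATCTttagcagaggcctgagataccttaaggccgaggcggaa
Cpox: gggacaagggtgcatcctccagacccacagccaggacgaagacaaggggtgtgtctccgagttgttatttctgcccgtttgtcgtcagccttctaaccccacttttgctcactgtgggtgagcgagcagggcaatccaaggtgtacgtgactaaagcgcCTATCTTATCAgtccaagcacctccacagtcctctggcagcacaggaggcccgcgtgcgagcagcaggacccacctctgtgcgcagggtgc
Urod: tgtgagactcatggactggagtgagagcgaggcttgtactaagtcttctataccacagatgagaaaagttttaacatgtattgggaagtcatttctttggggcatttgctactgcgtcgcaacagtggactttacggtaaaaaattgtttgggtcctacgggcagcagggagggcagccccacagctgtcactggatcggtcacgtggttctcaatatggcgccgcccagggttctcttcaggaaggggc

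The Alas2 stretch holds 1 such motif and that of Cpox holds 2 that overlap by 1 base, while the 250 bases before the Urod start hold none. Over 6 members with 8 annotated starts, 3 of the 250-base windows held a GATA motif, those of Alas2, Cpox and the second start of Uros, and 26.5% of all 32851 windows of that length in the table held one. The window of the second Uros start overlaps annotated exons, so that its motifs are not read as upstream sequence. A CACCC-type motif, searched as CCNCNCCC on either strand and bound by KLF1-type factors, was in 4 of the 8 windows, against 45.9% of all windows. Of these, the windows of Alas2, the second Alad start and the first Uros start overlap annotated exons, and that of the first Alad start does not. The CACCC count is thus not read as one of upstream sequence alone. These counts describe letters in a window and say nothing of binding.

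Erythroid-like cells, 4969 in the knockout and 4986 in the control, made up 73.5% of knockout and 72.7% of control cells. They were named from 22 markers, all detected at 5 CPM or more in both libraries. Macrophage markers summed to 0.56 CPM in knockout and 1.05 CPM in control erythroid-like cells, and hepatocyte markers to 3.69 CPM in the knockout cells and 3.30 CPM in the control cells. Of the 17 erythroid-like clusters, 8 had no marker of any class among their top 10 genes, and 4 of them (clusters 8, 9, 11 and 18) held cells mostly of 1 library, with 1663 knockout and 684 control cells in them. To place cells along maturation without using the enzymes, erythroid-like cells of both libraries were cut at the same values into 3 stages of equal size by the share of UMIs from the alpha-globin genes Hba-a1 and Hba-a2. These stages, called globin-low, globin-mid and globin-high, held 1752, 1523 and 1694 knockout cells, and 1566, 1795 and 1625 control cells. The level of Kit, the receptor used in the sort, was 92.3, 52.5 and 15.05 CPM over the knockout stages and 104, 50.6 and 11.6 CPM over the control stages. Kit was thus lower at each later stage in both libraries.

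Counted in UMIs, which do not scale with transcript length in this 3′ assay, erythroid-like cells of both libraries held most of Cpox, then Alad, Urod, Fech, Ppox, Uros and Alas2. The intervals of Ppox and Uros overlapped in the control.

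All 7 enzymes were higher at each later stage in both libraries, and the size of the stage difference varied along the path. Alas2, the first and rate-limiting enzyme, had 1.95, 5.92 and 35.1 CPM in globin-low, globin-mid and globin-high knockout cells and 1.42, 4.68 and 36.6 CPM in the same stages of the control. Globin-high cells were 17.98-fold above globin-low cells in the knockout (log2 ratio 4.17, 3.93 to 4.42) and 25.8-fold in the control (4.69, 4.41 to 4.99). The globin-low level of the control was below the 1.91 CPM of control Mast/basophil-like cells, so it is not read as expression and both folds are read as lower bounds. Against the highest of the other classes, globin-high cells stood 26.04-fold higher in the knockout and 19.1-fold higher in the control. Among the genes with at least 20 CPM in either of these stages Alas2 ranked 9 of 6285 in the knockout and 7 of 6204 in the control, among globin genes and the membrane anion exchanger gene Slc4a1. Of these, Hba-a1 and Hba-a2 set the stages themselves. Alas2 was near the floor over most of the axis: in the first of 12 bins of the alpha-globin axis it stood at 1.62 CPM in knockout and 0.82 CPM in control cells, and in the last at 66.9 CPM in knockout and 86.1 CPM in control cells.

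Uros was the next steepest. It had 23.6, 50.2 and 98.4 CPM over the knockout stages and 23.1, 57.8 and 112 CPM over the control stages, a 4.17-fold difference between globin-high and globin-low cells in the knockout and a 4.87-fold one in the control. Ppox and Fech, the closing pair of the path, differed by 2.53-fold and 2.72-fold in the knockout and by 2.49-fold and 2.64-fold in the control. Fech reached 234 CPM in globin-high knockout cells and 250 CPM in globin-high control cells, and Ppox 88.5 CPM in knockout cells against 93.9 CPM in control cells.

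The 3 enzymes with the highest levels had the smallest stage differences. Cpox, at 461, 692 and 938 CPM in the knockout and 519, 708 and 944 CPM in the control, differed by 2.03-fold in the knockout and 1.82-fold in the control. Alad, at 288, 387 and 513 CPM in the knockout and 302, 418 and 553 CPM in the control, differed by 1.78-fold in the knockout and 1.83-fold in the control. Urod, at 127, 170 and 226 CPM in the knockout and 155, 210 and 279 CPM in the control, differed by 1.77-fold in the knockout and 1.80-fold in the control. These are steps of a gentle slope rather than a late switch: Cpox, Alad and Urod were already at 384, 267 and 122 CPM in the first knockout bin and at 432, 272 and 142 CPM in the first control bin.

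**Figure D1:**
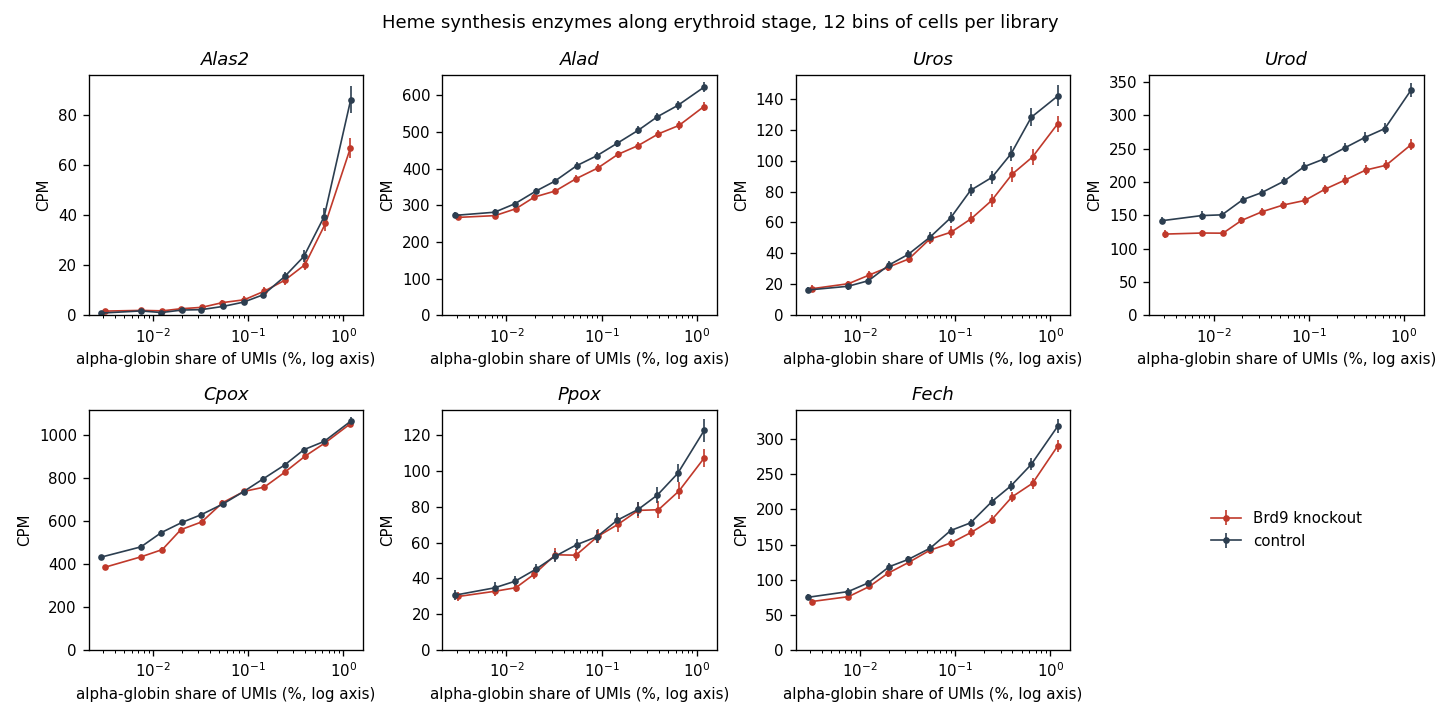
Level of each enzyme (CPM, linear axis from 0) against the median alpha-globin share of UMIs (percent, log axis) in 12 bins of erythroid-like cells per library, with exact 95% Poisson intervals as bars. Alas2 stays near the floor until the last bins, where it reaches 66.9 CPM in knockout cells against 86.1 CPM in control cells, whereas the Urod line of the knockout lies below that of the control in all 12 bins.

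At a threshold of 2-fold, 5 of 7 members were higher in globin-high than in globin-low cells in the knockout, where 3.50% of all genes were, and 4 of 7 in the control, where 3.63% of all genes were. The members in both counts were Alas2, Uros, Ppox and Fech, although control Ppox fell to a log2 ratio of 0.98 with stages cut on the Hbb-bs share, and Cpox stood just inside the threshold in the knockout and just outside it in the control. The median log2 ratio was 1.34 over the knockout members and 1.32 over the control members, beside -0.07 over all knockout genes tested and -0.09 over all control genes tested. Already between globin-mid and globin-low cells, 1 of 6 tested members was 2-fold higher in each library, Uros, with a log2 ratio of 1.09 in the knockout and 1.33 in the control, where 0.983% of knockout genes and 0.980% of control genes were. Alas1, the ubiquitous form of the first enzyme, ran the other way, with 16.1, 11.3 and 6.91 CPM over the knockout stages and 15.2, 10.9 and 7.71 CPM over the control stages, so that Alas2 stood above Alas1 in globin-high cells of both libraries and below it in the earlier stages.

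**Figure D2:**
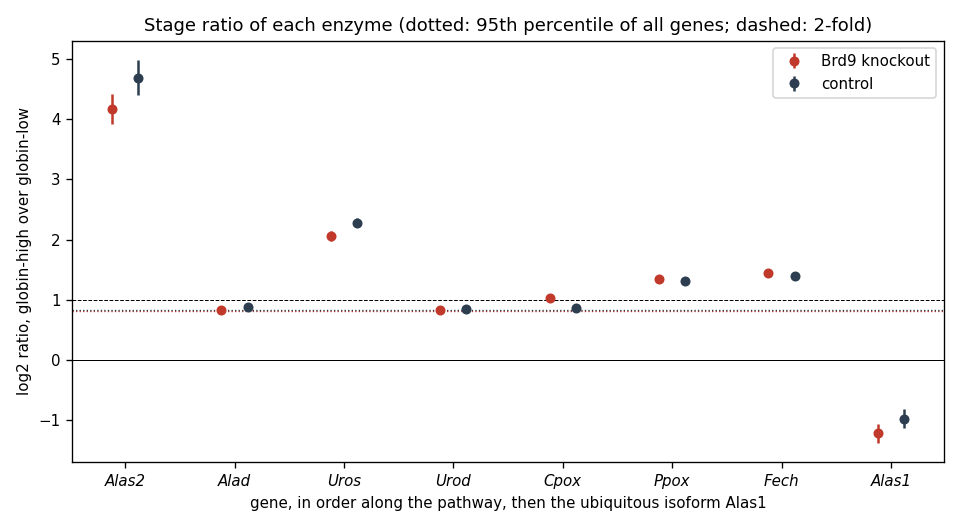
Log2 ratio of globin-high over globin-low erythroid-like cells for each enzyme and for Alas1, with exact 95% intervals, knockout left and control right for each gene. Alas2 lies above 4 in both libraries, Alas1 lies below 0, and the dotted lines mark the 95th percentile of all genes tested, 0.82 in each library.

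The stage ratio itself was smaller in the knockout than in the control for Uros, by -0.22 on the log2 scale (-0.33 to -0.12). It was larger in the knockout for Cpox, by 0.16 (0.13 to 0.19). Alad differed by -0.04 (-0.08 to -0.01), and the intervals of Urod, Ppox and Fech included 0. Alas2 differed by -0.52 (-0.90 to -0.15). This is not read as a difference of expression, because its globin-low levels lie near those of the other classes. Globin-high cells had a higher median alpha-globin share in the knockout (0.547%) than in the control (0.454%), and the part of this in these differences was not tested.

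In the share of cells with at least 1 UMI, after each cell was thinned to 18526 UMIs, Alas2 was found in 3.95%, 10.7% and 42.1% of cells over the knockout stages and in 2.34%, 8.11% and 42.7% over the control stages. Unthinned, globin-high cells had 58.2% in the knockout and 60.0% in the control. In HSC/MPP-like cells (hematopoietic stem cells and multipotent progenitors) the thinned share was 1.18% in the knockout and 1.93% in the control. The albumin gene Alb, which marks hepatocytes and not blood cells, was found in 0.92% of all knockout and 1.21% of all control cells. The Alas2 shares outside the erythroid-like cells, 1.16% to 2.93%, reached above this, and the background of Alb need not be that of Alas2. These Alas2 shares are themselves taken as its background here and are not read as expression. The share in globin-low control cells, 2.34%, lies within that range, and the one in globin-low knockout cells, 3.95%, lies above it. Alas2 was also thinly counted in single cells, with at most 21 UMIs in a knockout cell and 14 in a control cell. At the other end, Cpox was found in at least 99.2% of the cells of each stage in both libraries, and Alad in at least 98.8%.

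Outside the erythroid-like cells, 6 of the 7 enzymes were lower in every class than in globin-low cells of the same library, and Alas2 was the exception. For Alad, Urod, Cpox, Ppox and Fech the next class was the MEP-like cells (megakaryocyte-erythroid progenitors), at 104, 87.0, 90.1, 21.0 and 33.4 CPM in the knockout and 99.8, 96.6, 94.7, 19.6 and 33.9 CPM in the control. Uros had no such intermediate level and stood at 9.44 CPM in knockout and 9.34 CPM in control MEP-like cells, close to its 8.83 CPM in knockout and 8.71 CPM in control HSC/MPP-like cells. Globin-high cells stood above the highest of the other classes by 10.4-fold for Cpox in the knockout and 9.96-fold in the control, and by 2.60-fold for Urod in the knockout and 2.89-fold in the control, the smallest such ratio of the 7 enzymes in both libraries.

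**Figure D3:**
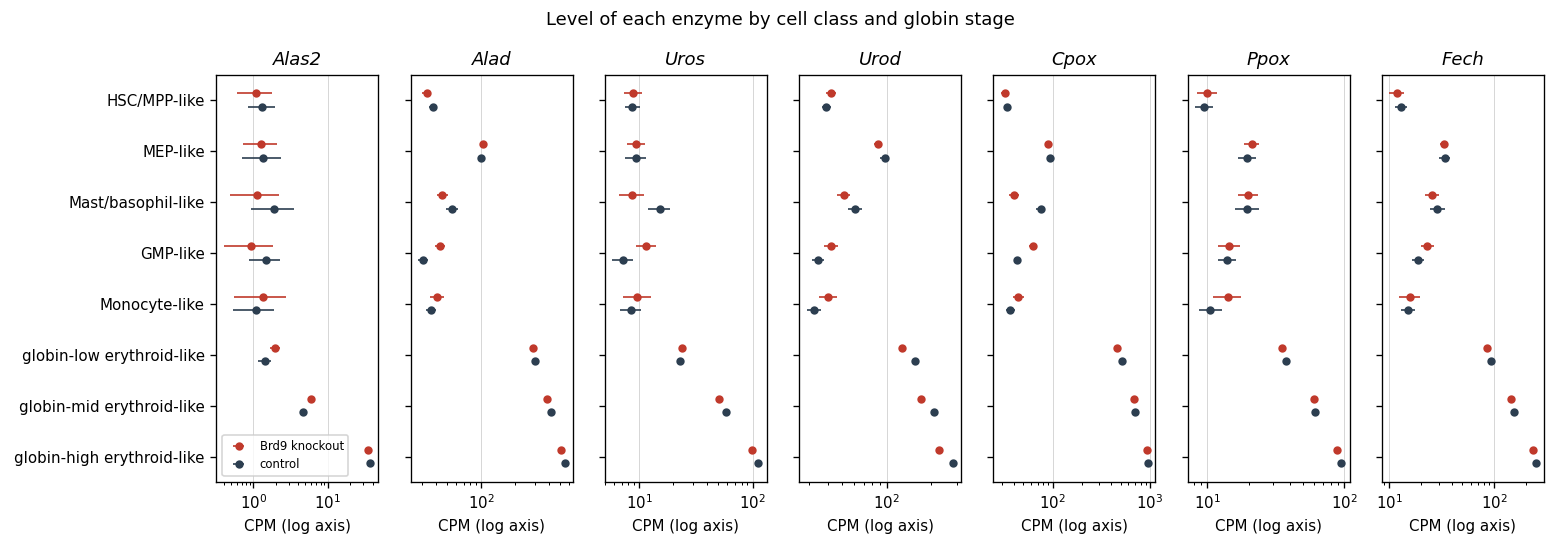
Level of each enzyme (CPM, log axis) in 5 other classes and the 3 erythroid stages, with exact 95% Poisson intervals, the knockout point above the control point in each row. The step from MEP-like to globin-low cells is widest for Cpox, which has 90.1 and 461 CPM in the knockout, against 94.7 and 519 CPM in the control, and Alas2 separates from its level in other classes in the globin-mid and globin-high stages.

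Across the 16 combinations of class or stage and library, Alas2 was the member least like the others, with Pearson correlations of 0.75 to 0.91 on the log2 scale to the other 6, and the other members correlated at 0.91 to 0.99 among themselves. These points share cells and libraries and are a description. The stages were cut on Hba-a1 and Hba-a2, so that the pattern of Hba-a2 over them is partly set by the cut. Outside the erythroid-like cells, Alas2 rests on 7 to 24 UMIs per class and library. Among 4759 genes with at least 50 CPM somewhere, the patterns nearest to Alas2 were those of the adult beta-globin gene Hbb-bs (0.98), Dhrs11 (0.97) and Hba-a2 (0.97). The nearest to Uros were Epb42, which encodes a membrane skeleton protein, Trim10 and Dmtn. Alad was nearest to Wapl, the mitochondrial glutaredoxin gene Glrx5 and Nipa1, and Urod to Wapl, Slc22a23 and the erythropoietin receptor gene Epor. Cpox was nearest to the ankyrin gene Ank1, the heme-binding protein gene Hebp1 and the red-cell pyruvate kinase gene Pklr. Ppox was nearest to Pqlc1, Atp8a1 and Eif2ak1, which encodes the heme-regulated eIF2alpha kinase, and Fech to Arrb1 and Redrum.

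Over the whole libraries no counted enzyme differed by 1.2-fold between genotypes, and the ratio of Urod was the farthest from 0. Urod had 149 CPM in knockout cells against 178 CPM in control cells, a log2 ratio of -0.25 (-0.27 to -0.23). Alad had 324 CPM in knockout cells against 341 CPM in control cells, Uros 46.4 CPM in the knockout, against 50.8 CPM in the control, and Cpox 561 CPM in knockout cells against 574 CPM in control cells. Ppox stood at 51.0 CPM in knockout cells against 52.5 CPM in control cells, and Fech at 126 CPM in knockout cells against 133 CPM in control cells. Alas2, at 11.1 CPM in knockout cells against 10.3 CPM in control cells, was under the 20 CPM that a gene needed to be counted. Of the 6 members counted, none was 1.2-fold higher or lower in the knockout, where 1.91% of 6226 genes were higher and 1.90% lower.

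Within erythroid-like cells Urod passed this threshold. It stood at 172 CPM in knockout cells against 211 CPM in control cells, 0.813-fold, with a log2 ratio of -0.30 (-0.32 to -0.28). It was the only 1 of 6 counted members past 1.2-fold, where 2.48% of 6041 genes were higher and 2.14% lower. The other members had log2 ratios of -0.16 (Uros), -0.10 (Alad), -0.10 (Fech), -0.08 (Ppox) and -0.06 (Cpox), all with intervals below 0, and Alas2 one of 0.08 (0.01 to 0.16). Their median over the 6 counted members was -0.10, beside a median of 0.03 over all genes counted. In the 4 clusters held mostly by 1 library the mix of cells differs between genotypes, and without these clusters the ratio of Urod was -0.39 and that of Uros -0.28, so that 2 members were then past the threshold. Of all genes, 2.84% were then lower and 4.48% higher. The 22 erythroid markers, which include the globin genes, were lower in the same cells as well, with a sum of 7232 CPM in knockout cells against 8538 CPM in control cells.

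The lower Urod level held along the whole maturation axis. The ratio was -0.28 (-0.32 to -0.24) in globin-low, -0.30 (-0.34 to -0.27) in globin-mid and -0.30 (-0.34 to -0.27) in globin-high cells. Urod was again the only member past 1.2-fold lower in each, where 2.19%, 2.23% and 2.18% of all genes were lower in globin-low, globin-mid and globin-high cells. The erythroid markers summed to 1930, 4072 and 16842 CPM over the knockout stages and to 2483, 5142 and 20126 CPM over the control stages, and their part in the Urod ratio was not tested. In the 12 finer bins the knockout level of Urod was below the control level 12 times, by a log2 ratio of -0.40 to -0.22, and the counting intervals of the genotypes were apart each time. Per cell, an erythroid-like cell held on average 7.08 Urod UMIs in knockout and 9.21 in control embryos. After thinning, Urod was found in 93.9% of knockout and 96.4% of control erythroid-like cells.

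Alad and Fech were also lower in the knockout in 12 of 12 bins, with intervals apart in 8 bins for Alad and 6 for Fech, but by less: the median log2 ratio over bins was -0.11 for Alad and -0.12 for Fech. Cpox and Ppox were lower in the knockout in 10 bins and Uros in 9. The Cpox difference lay early, with a ratio of -0.17 (-0.19 to -0.15) in globin-low cells, against -0.03 in globin-mid and -0.01 (-0.03 to 0.01) in globin-high cells. That of Uros lay late, with 0.03 (-0.06 to 0.13) in globin-low, -0.20 in globin-mid and -0.19 (-0.24 to -0.14) in globin-high cells. With stages cut instead on the first principal component of these cells, Uros had 0.02, 0.01 and -0.06 from the first to the last stage, so that its late difference did not hold, and Cpox had -0.10, 0.06 and 0.03. Alas2 was higher in the knockout in globin-low (0.46, 0.09 to 0.84) and globin-mid cells (0.34, 0.13 to 0.55), on levels of 1.42 to 5.92 CPM that in globin-low cells lie near the background, and not distinguishable at this depth in globin-high cells (-0.06, -0.15 to 0.02). In globin-high cells all 7 members had ratios below 0, with a median of -0.10, beside 0.04 over all genes counted. In the last stage cut on the principal component, 4 of these signs turned, with 0.22 for Alas2, 0.03 for Cpox, 0.013 for Ppox and 0.0065 for Fech.

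**Figure D4:**
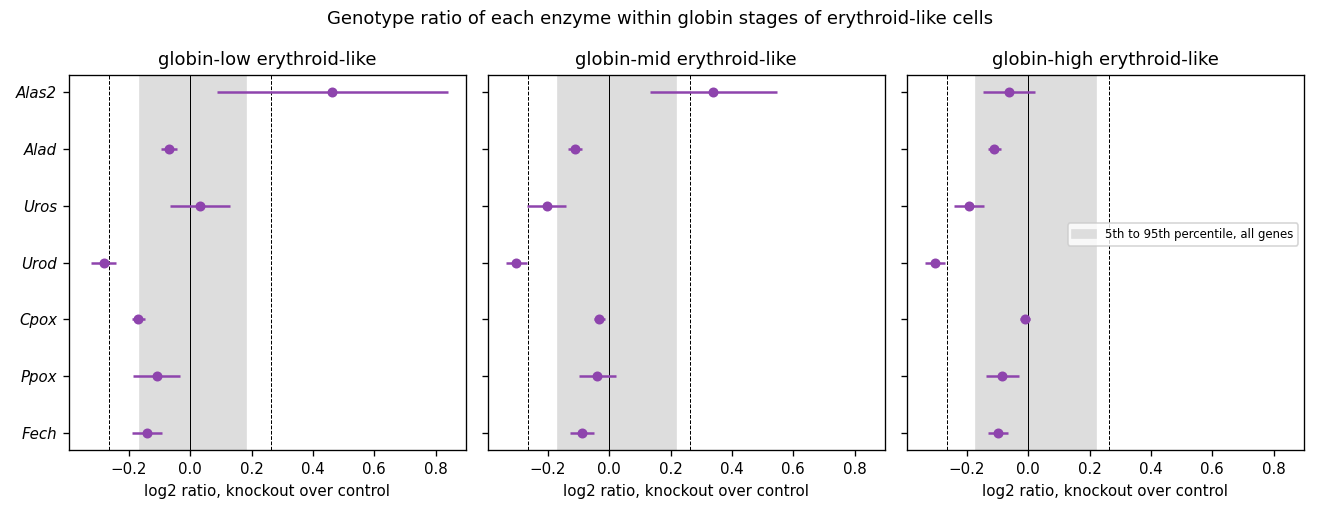
Log2 ratio of knockout over control for each enzyme in the 3 erythroid stages, with exact 95% intervals that cover counting error only; dashed lines mark 1.2-fold and the grey band the 5th to 95th percentile of all genes with at least 20 CPM. Urod lies left of the dashed line and of the band in each panel, at -0.28, -0.30 and -0.30.

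Since the libraries differ in their sex mix and Alas2 is X-linked, the erythroid-like cells were also split by cell sex, read from Xist and Y-linked transcripts. Urod was lower in the knockout in both sexes, at 167 CPM in knockout and 206 CPM in control female cells, a log2 ratio of -0.30 (-0.34 to -0.27), and at 179 CPM in knockout and 213 CPM in control male cells, -0.25 (-0.28 to -0.22), just inside 1.2-fold. Alas2 split by sex: female cells had 11.99 CPM in knockout cells against 12.9 CPM in control cells (-0.11, -0.24 to 0.03), and male cells 16.004 CPM in knockout cells against 12.8 CPM in control cells (0.32, 0.22 to 0.43). By stage, the ratio was 0.87 (0.14 to 1.68) in female and 0.19 (-0.36 to 0.73) in male globin-low cells, 0.28 (-0.04 to 0.61) in female and 0.23 (-0.11 to 0.56) in male globin-mid cells, and -0.25 (-0.40 to -0.10) in female and 0.08 (-0.04 to 0.19) in male globin-high cells. The signs of the sexes thus differed in the globin-high stage and were alike in the earlier ones. The stage mix also differed between the sexes, with 889 of 2962 female and 749 of 1849 male knockout cells in the globin-high stage, against 354 of 1196 female and 1249 of 3712 male control cells. Female over male Alas2 over all erythroid-like cells was -0.42 on the log2 scale in the knockout (-0.53 to -0.30) and 0.01 in the control (-0.12 to 0.14). Within stages it was 0.28 (-0.24 to 0.82), 0.26 (-0.07 to 0.60) and -0.19 (-0.32 to -0.07) from globin-low to globin-high knockout cells, and -0.39 (-1.22 to 0.35), 0.21 (-0.12 to 0.53) and 0.13 (-0.01 to 0.28) over the control stages. Female and male cells of a library come from different embryos, whose part in this difference was not tested. Ppox had -0.11 (-0.17 to -0.05) in female and 0.03 (-0.02 to 0.08) in male cells, with the same sign in both sexes within each stage. The other members had the same sign in both sexes over all erythroid-like cells. Within stages this did not hold for Uros in globin-low cells, at 0.14 (-0.04 to 0.32) in female and -0.09 (-0.23 to 0.06) in male cells.

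**Figure D5:**
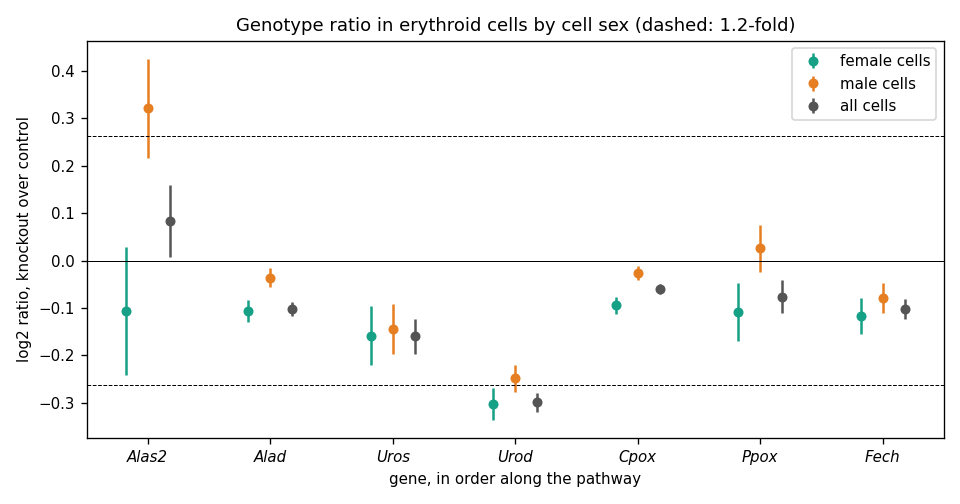
Log2 ratio of knockout over control in erythroid-like cells for each enzyme in female cells, male cells and all cells, with exact 95% intervals; dashed lines mark 1.2-fold. Urod lies near -0.3 in both sexes, at -0.30 in female and -0.25 in male cells, and Alas2 lies at -0.11 in female and 0.32 in male cells.

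The enzymes were low in the other 5 classes, and in 3 of these classes at least 2 members passed 1.2-fold. In GMP-like cells (granulocyte-monocyte progenitors and early granulocytes) 4 of 4 counted members were past 1.2-fold higher in the knockout, where 11.9% of all genes were: Alad at 43.2 CPM in knockout cells against 30.6 CPM in control cells, Urod at 42.1 CPM in knockout and 34.5 CPM in control cells, Cpox at 62.0 CPM in knockout and 43.1 CPM in control cells, and Fech at 23.2 CPM in knockout and 18.8 CPM in control cells. The 22 erythroid markers summed to 435 CPM in knockout and 297 CPM in control GMP-like cells. In female GMP-like cells alone, Alad stood at 35.0 CPM in knockout cells against 38.6 CPM in control cells, and Cpox at 45.4 CPM in knockout cells against 59.6 CPM in control cells, so that the direction did not hold in both sexes. In Mast/basophil-like cells 2 of 4 counted members were past 1.2-fold lower in the knockout, where 6.88% of all genes were, with Cpox at 40.4 CPM in knockout cells against 75.1 CPM in control cells and Alad at 45.16 CPM in knockout cells against 55.2 CPM in control cells. By sex, over 34 to 140 cells a group, the Cpox ratio was -1.17 (-1.61 to -0.72) in female and -0.27 (-0.61 to 0.06) in male cells, and that of Alad -0.27 (-0.76 to 0.24) in female and 0.03 (-0.30 to 0.37) in male cells, so that the Alad direction did not hold in both sexes. Erythroid markers there summed to 395 CPM in knockout cells against 763 CPM in control cells. In Monocyte-like cells Urod (0.32) and Cpox (0.28) of 3 counted members were past 1.2-fold higher, where 9.07% of all genes were, with erythroid markers at 467 CPM in knockout cells against 310 CPM in control cells. None of 3 counted members in HSC/MPP-like cells and none of 5 in MEP-like cells was past 1.2-fold either way, where 8.55% and 7.85% of all genes were. The erythroid markers were lower in the knockout there too, at 367 CPM in knockout cells against 493 CPM in control HSC/MPP-like cells, and at 871 CPM in knockout cells against 1066 CPM in control MEP-like cells. The counted members there lay on both sides of 0, from -0.17 for Alad to 0.10 for Urod in HSC/MPP-like cells and from -0.15 for Urod to 0.10 for Ppox in MEP-like cells. The part of erythroid RNA in the ratios of these 5 classes was not tested.

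The genes around the path were read from 6 lists: substrate supply, mitochondrial and porphyrin transport, heme use and breakdown, iron-sulfur and iron sensing, heme response, and erythroid regulators. In erythroid-like cells 1 of 37 counted genes was past 1.2-fold, Tspo2, a gene of the transport list that encodes the erythroid relative of the translocator protein Tspo, with 112 CPM in knockout cells against 147 CPM in control cells (-0.39, -0.42 to -0.37). This is near the share of all genes, of which 2.14% were lower and 2.48% higher. The median ratio of the lists lay between -0.11 for the 5 erythroid regulators and 0.03 for the 8 transport genes. Klf1 stood at 284 CPM in knockout cells against 309 CPM in control cells (-0.12), Tal1 at 111 CPM in knockout cells against 125 CPM in control cells (-0.16), Gata1 at 152 CPM in knockout cells against 148 CPM in control cells (0.04) and its partner Zfpm1 at 266 CPM in knockout cells against 244 CPM in control cells (0.12). Hebp1 had 242 CPM in knockout cells against 281 CPM in control cells (-0.21), and Slc25a38, the mitochondrial glycine carrier that feeds the first step, 83.5 CPM in knockout cells against 94.3 CPM in control cells (-0.17). Along maturation Abcb10, an inner mitochondrial membrane transporter needed for hemoglobin synthesis, had a globin-high over globin-low log2 ratio of 2.21 in the knockout and 2.37 in the control.

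Over whole libraries 1 more list gene passed 1.2-fold beside Tspo2, where 1.90% of all genes were lower and 1.91% higher, and it lay at the first step of the path. Alas1 had 24.8 CPM in knockout cells against 35.9 CPM in control cells, a log2 ratio of -0.53 (-0.58 to -0.49). Over all erythroid-like cells Alas1 had 11.7 CPM in knockout cells against 11.4 CPM in control cells (0.04, -0.04 to 0.12). By sex the signs were opposite there, with 0.17 (0.03 to 0.31) in female and -0.15 (-0.27 to -0.03) in male cells. The lower Alas1 level lay in HSC/MPP-like cells, at 40.2 CPM in knockout cells against 67.9 CPM in control cells (-0.76, -0.90 to -0.61). It also lay in GMP-like cells, where Alas1 was highest, at 282 CPM in knockout cells against 418 CPM in control cells (-0.57, -0.64 to -0.50). The 12 GMP markers were lower in the same cells, with a sum of 1686 CPM in knockout cells against 3344 CPM in control HSC/MPP-like cells, and of 19225 CPM in knockout cells against 29549 CPM in control GMP-like cells, and their part in the Alas1 ratios was not tested. In HSC/MPP-like cells the ratio was -0.76 in female and -0.78 in male cells, and in GMP-like cells -0.50 in female and -0.38 in male cells. Mast/basophil-like cells ran the other way, at 51.7 CPM in knockout cells against 41.1 CPM in control cells (0.33, 0.08 to 0.58). GMP-like cells also made up a smaller share of the knockout library, with 283 of 6757 knockout cells and 417 of 6860 control cells.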

How the data were processed

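Per the labels' protocols, lineage-negative c-Kit-positive cells were profiled with the 10x Genomics 3′ kit. The authors used Cell Ranger 7.2.0 and mm10, per the submitters' processing notes, and deposited UMI counts per gene and barcode, not normalized. No source used here states whether counting included introns. Barcodes with at least 1000 genes, 2000 UMIs and at most 10% mitochondrial UMIs were kept (7001 knockout, 7100 control), and Scrublet, run in scanpy 1.11.5, marked 244 knockout (3.49%) and 240 control cells (3.38%) as doublets, which were removed. Both libraries were clustered together (3000 variable genes, 30 components, 15 neighbours, Leiden resolution 1) without the members, heme-related, cell-cycle, mitochondrial and ribosomal genes, Brd9, Xist, Tsix and 4 Y-linked genes. Other X-linked genes were not left out, and the part of the sex mix in the clusters was not tested. The 25 clusters took the name of the marker list with the highest relative level, at least 3 of its markers being at 5 CPM. In no cluster did another class have more markers among the top 10 genes by fold. Classes with at least 150 cells per library were compared, and names stand for cells like the named type. Cells with at least 3 Xist UMIs and at most 1 Y-linked UMI were called female, and those with at most 1 Xist UMI male.

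UMIs were summed per library and cell set and given as CPM. Levels have exact Poisson, shares Clopper-Pearson and ratios conditional exact intervals, and differences between stage ratios have normal approximations. The ratio intervals alone were run on simulated counts. Those were Poisson counts, which the intervals assume, without spread between cells or embryos. Thinning left out 367 knockout and 314 control cells under its depth. A gene was counted at 20 CPM or more in either group. Genotype was read at 1.2-fold and stage at 2-fold, beside the share of all genes past it. All 7 members were named, and from each list the 2 highest and 2 lowest ratios at most, and per member the 3 nearest patterns, of which 1 gene is not reported here. The members and lists were chosen with earlier results of these data known.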

Additional observations from a re-analysis of the deposited data

Results flagged for a closer look

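The genotype ratio of Alas2 in erythroid-like cells had opposite signs in the sexes, -0.11 in female and 0.32 in male cells on the log2 scale, a difference of -0.429. By stage, both sexes had a ratio above 0 in globin-low cells (0.87 in female and 0.19 in male cells) and in globin-mid cells (0.28 in female and 0.23 in male cells), and the signs differed in globin-high cells (-0.25 in female and 0.08 in male cells). The ratio of Ppox over all stages also had opposite signs in the sexes, at -0.11 in female and 0.03 in male cells, a difference of -0.135, although within each stage both sexes had the same sign. Between stages, the ratio of Alas2 was -0.06 in globin-high and 0.46 in globin-low cells, a difference of -0.523, and that of Uros was -0.19 in globin-high and 0.03 in globin-low cells, a difference of -0.225. Each was picked out because the point values of the groups had opposite signs, and with 1 library per genotype none of these differences was tested. In each, the counting interval of 1 group included 0. These were female cells for Alas2 (-0.24 to 0.03) and male cells for Ppox (-0.02 to 0.08). Between stages they were globin-high cells for Alas2 (-0.15 to 0.02) and globin-low cells for Uros (-0.06 to 0.13). The differences between stages had counting intervals of their own that left out 0, at -0.90 to -0.15 for Alas2 and -0.33 to -0.12 for Uros. The levels of Alas2 in globin-low cells are 1.95 CPM in knockout cells against 1.42 CPM in control cells, from 147 knockout and 103 control UMIs, which lie near the background, so that the difference between stages is not read as one of expression. With stages cut on the first principal component, Alas2 had a ratio above 0 in the last stage too, at 0.22, and Uros had 0.02 in the first stage and -0.06 in the last.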

How the results depend on the processing

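The ratio of Urod in erythroid-like cells kept its sign under 13 of 13 alternatives, from -0.39 without the clusters held mostly by 1 library to -0.25 in male cells alone, and stayed past 1.2-fold in 12. The count of members past 1.2-fold lower, none over whole libraries and 1 elsewhere, became 1 over whole libraries with median-of-ratios scaling and in female cells alone. With that scaling 2.88% of all genes were lower, and in female cells 1.69%. In erythroid-like cells it became 0 in male cells alone, where 2.67% of all genes were lower. Without the clusters held mostly by 1 library it became 2, where 2.84% of all genes were lower. In globin-low cells the count became 0 in female cells alone, where 2.11% of all genes were lower. In globin-mid cells it became 2 in male cells alone and with stages cut on the Hbb-bs share, where 3.83% and 2.92% were. With stages cut on the first principal component of the erythroid-like cells it became 0 in globin-mid and 0 in globin-high cells, at Urod ratios of -0.22 and -0.25. Of all genes, 2.13% and 1.87% were lower in these stages. The last stage then had ratios above 0 for Alas2 (0.22), Cpox (0.03), Ppox (0.013) and Fech (0.0065), and the middle stage for Uros (0.01), Cpox (0.06), Ppox (0.05) and Fech (0.03). In these cells the component correlated with the alpha-globin share at a Spearman rho of 0.88. The sign of Alas2 in the whole erythroid class turned in female cells alone, at -0.11, and that of Ppox in male cells alone, at 0.03. Median-of-ratios scaling moved the median of all genes in erythroid-like cells to -0.03, against 0.03, and the split of calls to 1.41% higher and 3.39% lower. All 7 enzymes were higher at each later stage by UMIs per cell too, and 6 by the thinned share, where Cpox reached 100% in the globin-mid stage. In the control, Alad passed 2-fold between globin-high and globin-low cells with median-of-ratios scaling (1.01). Control Ppox fell below it with stages cut on the Hbb-bs share (0.98). In the knockout, Cpox stayed past it in 10 of 15 alternatives. Leaving out barcodes with transcripts of both sexes, and leaving out the clusters held mostly by 1 library, were chosen after seeing the data. No paired analysis was possible because each genotype has 1 library. Counting error limits Alas2 most, at 2758 UMIs in knockout and 2764 in control erythroid-like cells, and no value here carries the spread between embryos.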
